A study of Mus musculus with 14 samples.

Results

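The genes described here code for 38 G protein-coupled receptors of the biogenic amines, acetylcholine and somatostatin. They comprise 8 adrenoceptor genes for adrenaline and noradrenaline (Adra, Adrb), 5 dopamine (Drd), 11 serotonin (Htr), 5 muscarinic acetylcholine (Chrm), 4 histamine (Hrh) and 5 somatostatin (Sstr) receptor genes. They were listed by name and family among 21938 annotated protein-coding genes, with earlier results of these data known, and all 38 were found in the annotation. For each gene, the H3K27me3 sites were collected that overlapped its body or the 1 kb on either side of any of its annotated start sites. The stretch around the start sites is called the start-site window below. The genes lay on 17 chromosomes, none of them X or Y, and ranged in length from 1.42 kb (Sstr4) to 485 kb (Chrm3).

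H3K27me3 sites were mapped in immortalised mouse embryo fibroblasts (iMEF) of 1 clone, NG3. In these cells the floxed endogenous Ash2l gene had been deleted by a tamoxifen-activated Cre-ER, and growth depended on FKBP-HA2-ASH2L, an ASH2L fusion brought in by lentivirus that the compound dTAG-13 directs to degradation. ASH2L is a subunit of the complexes that methylate lysine 4 of histone H3. The 12 H3K27me3 libraries fell into 6 groups of 2, namely control cells and cells given dTAG-13 for 16 h, 8 h, 4 h, 2 h or 30 min. The 2 input libraries came from the control and the 16 h cells. All of these groups carried the deletion and the fusion.

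The 153983 sites come from 1 list over all these libraries, with a chromosome, a start and an end per site and no value for any library. A site may thus have been called in control cells, in treated cells or in both, and neither an effect of dTAG-13 nor a spread between replicates could be obtained. The study's methods give a minimum of raw reads aimed at per library, but not the reads left after filtering and scaling, so the depth behind a site is unknown. A gene without a site is therefore a gene for which no call was listed. Of 8 fibroblast marker genes, Col1a1 and Vim had a site in the start-site window, of 389 and 363 bp, and none of the 8 had a site of at least 2 kb. Of 8 neuron marker genes, 6 had a site and 5 had one of at least 2 kb. Over all protein-coding genes, 31.5% had a site in this window and 16.1% had one of at least 2 kb. The Wilson intervals of the fibroblast shares, 7.15 to 59.1% and 0 to 32.4%, include these values. The fibroblast markers can therefore not be told apart from genes in general. The intervals of the neuron shares, 40.9 to 92.9% and 30.6 to 86.3%, lie above them.

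Receptors of these families sit in the cell membrane and pass the binding of a transmitter or hormone to heterotrimeric G proteins. Receptors coupled to Gs raise cyclic AMP, those coupled to Gi lower it, and those coupled to Gq release calcium from internal stores. Most are known from neurons, heart, smooth muscle, glands and endocrine cells rather than from fibroblasts. H3K27me3 is set by Polycomb repressive complex 2 on genes that are silent in a given cell type, often around promoters rich in CpG dinucleotides, and can spread over short genes as a whole.

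Of the receptor genes, 34 had an H3K27me3 site in the start-site window. This was 89.5% of 38 (95% Wilson interval 75.9 to 95.8%), whereas 31.5% of all protein-coding genes had one. A site of at least 2 kb was listed there for 24 receptor genes (63.2%, interval 47.3 to 76.6%), against 16.1% of all genes, a site of at least 5 kb for 11, against 8.69%, and a site of at least 10 kb for 7, against 3.82%. At the 2 kb limit, Htr5b lay just inside with 2076 bp and Adrb3 just outside with 1721 bp. In 22 genes at least 50% of the window was covered, against 13.5% of all genes. The median receptor gene had 79.7% of its start-site window covered and its widest site there measured 3361 bp (order-statistic interval 1718 to 4805 bp), while both medians were 0 over all protein-coding genes. These intervals cover the counting of genes only.

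Sites also covered a large share of the body in many of the genes. The body was covered to at least 50% in 16 receptor genes (42.1%), against 9.35% of all protein-coding genes. It was covered completely in 6, namely Adra2b, Adra2c, Drd5, Hrh3, Sstr1 and Sstr5 (all genes, 2.19%). The median covered share of the body was 37.7% (interval 9.93 to 68.0%), against 0 over all genes. Adra1d, Htr2a, Htr2b and Sstr4 had no site in window or body, a state shared by 52% of all protein-coding genes.

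**Figure D1:**
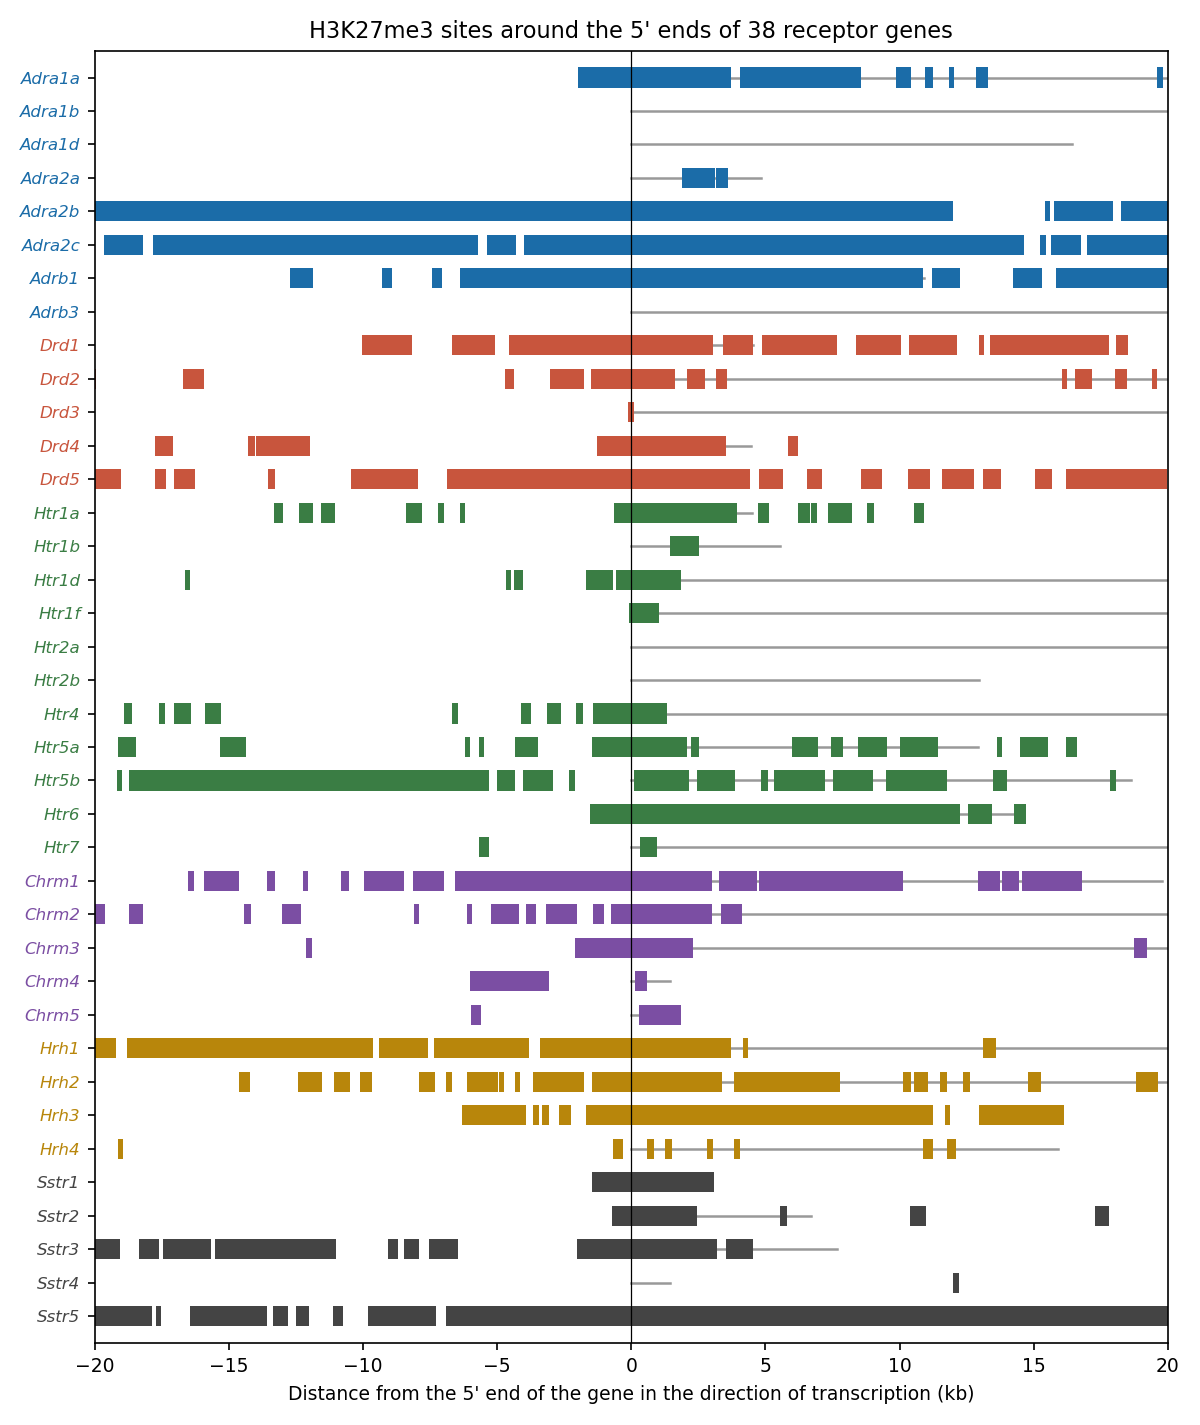
H3K27me3 sites (filled bars) from 20 kb upstream to 20 kb downstream of the 5′ end of each of the 38 genes, in the direction of transcription, coloured by receptor family, with the gene body as a grey line. Sites over Adra2b and Sstr5 run through the gene and far beyond it, those of Sstr1 and Htr1f stand alone, and Adra1d, Htr2a, Htr2b and Sstr4 carry none from the start to the end of the gene.

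Sequences directly upstream of the start are shown for Adra2b and Sstr4, because both have a CpG-rich start and they differ in the presence of a site. Each is 200 bases of GRCm38.p6, written 5′ to 3′ on the strand of the gene and ending just before the most upstream annotated start, with every CpG in capitals. The counterpart over 21938 protein-coding genes, counted from the 5′ end of the gene record, had a median of 7 CpGs (quartiles 2 and 15), and 90.4% of these sequences held at least 1. The CpG-rich start with the widest site was that of Adra2b (chr2:127362979-127363178, plus strand). A CpG-rich start without a site was that of Sstr4 (chr2:148395144-148395343, plus strand). No annotated exon overlaps these stretches.
Adra2b: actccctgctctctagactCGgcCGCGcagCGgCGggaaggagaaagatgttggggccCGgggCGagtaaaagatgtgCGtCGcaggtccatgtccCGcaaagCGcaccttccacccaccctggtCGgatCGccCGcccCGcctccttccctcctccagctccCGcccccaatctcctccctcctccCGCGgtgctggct
Sstr4: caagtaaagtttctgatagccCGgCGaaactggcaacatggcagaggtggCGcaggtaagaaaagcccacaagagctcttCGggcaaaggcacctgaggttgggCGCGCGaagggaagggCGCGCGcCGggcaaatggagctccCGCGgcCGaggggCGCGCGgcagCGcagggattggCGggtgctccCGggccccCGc

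The Adra2b stretch held 18 CpGs, and all of its 200 bases were covered by a site. The Sstr4 stretch held 21 CpGs, and none of its bases was covered. The GC content was 68% in Adra2b and 67.5% in Sstr4.

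The 8 adrenoceptor genes included both the gene with the widest site and a gene with none. Adra2b, for a Gi-coupled receptor of noradrenaline, lay inside the widest site of all the receptors, 34914 bp at chr2:127340278-127375191. Adra2c, for another Gi-coupled receptor that restrains noradrenaline release, was covered from end to end by a site of 18637 bp at chr5:35274325-35292961. Adrb1, for the receptor through which noradrenaline raises the heart rate, had a site of 17244 bp at chr19:56715814-56733057 that covered the window completely and 99.5% of the body. Thus 3 of the 7 sites of at least 10 kb were on adrenoceptor genes.

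Adra2a, the third gene of the Gi-coupled alpha-2 group, differed from its relatives. Its site in the window measured 1245 bp (chr19:54046039-54047283) and covered 7.14% of the window, but 98.3% of the coding sequence was covered. Adra1a, for a Gq-coupled receptor of smooth muscle, had a site of 5681 bp over its start and 33.1% of its 136 kb body covered. Adra1b had 1.94% of a 127 kb body covered, and its site of 1718 bp lay at a second annotated start, 64921 bp downstream of the 5′ end. Adrb3, known for lipolysis in fat cells, had a site of 1721 bp near annotated starts, beginning 21245 bp downstream of its 5′ end, and 73.3% of its coding sequence was covered. Adra1d (chr2:131545850-131562283) had no site in window or body, and the one nearest to its 5′ end was 26974 bp away.

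All 5 dopamine receptor genes had a site in the start-site window, and in 4 of them the window was covered completely. Drd5 was also covered over its whole body by a site of 11293 bp at chr5:38312483-38323775. Its Gs-coupled relative Drd1, the main receptor of that class in the striatum, had a site of 7590 bp at chr13:54052665-54060254 and 91.4% of its body covered. Of the Gi-coupled group, Drd4 had a site of 4805 bp and 79.4% of its body covered. Drd2, the target of most antipsychotic drugs, had a site of 3126 bp at its start and 29 sites over its 67.6 kb, which together covered 54% of the body. Drd3 stood at the other end, with a site of 228 bp at chr16:43753914-43754141, 5.7% of the window and 3.93% of the body covered.

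The 11 serotonin receptor genes were the largest family. A site in the window was listed for 9 and one of at least 2 kb for 6, and the median covered share of the body was 8.9%. Htr6, for a Gs-coupled receptor of the brain, had the widest site of the family, 13796 bp at chr4:139063303-139077098, and 92.5% of its body covered. Htr1a, the somatic autoreceptor of serotonin neurons, had a site of 4599 bp and 88% of its body covered. Htr5a had a site of 3546 bp, Htr4, known for gut motility, one of 2770 bp, Htr1d one of 2436 bp and Htr5b one of 2076 bp. These 4 genes differed widely in the body, with covered shares of 48.7%, 1.58%, 8.9% and 54.4%.

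In Htr1b, Htr1f and Htr7 the site was narrow. It measured 1100 bp in Htr1b, 1123 bp in Htr1f and 658 bp in Htr7. The Htr1b and Htr7 sites lay downstream of the 5′ end and 86.8% and 84.1% of the coding sequence were covered, respectively. In Htr1f the site lay over the 5′ end and 0% of the coding sequence was covered. Htr2a and Htr2b, for Gq-coupled receptors, had no site. For Htr2a (chr14:74640840-74709494), the target of the serotonergic psychedelics, the site nearest to the 5′ end was 174615 bp away, and both flanks of 100 kb were free of sites.

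Htr2b (chr1:86099026-86111970) lies inside Psmd1, which codes for a proteasome subunit. The site nearest to its 5′ end was 49513 bp away. The flanks of Htr2b were covered to 23.3%, which made it the receptor gene with the largest covered share around an uncovered body.

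All 5 muscarinic receptor genes had a site in the window, and 3 had one of at least 2 kb. Chrm1, for the Gq-coupled receptor of cortex and hippocampus, had a site of 7019 bp at chr19:8659779-8666797 and 68% of its body covered. Chrm3, for the receptor of glands and smooth muscle, had a site of 4400 bp at its 5′ end. A further site of 1829 bp covered its complete coding sequence, which starts 482 kb downstream. In all, 76 sites overlapped the Chrm3 region and together covered 8.95% of the body. Chrm2, the receptor by which the vagus slows the heart, had a site of 3779 bp at the 5′ end, 89% of the window covered and 3.76% of the body, the lowest share of the family. Chrm5 had the highest, 81.6%, from a site of 1229 bp at chr2:112478911-112480139 and a shorter neighbour.

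For Chrm4 and Chrm5 the annotated gene record begins at the coding sequence, so that their windows are centred on the coding start. Chrm4 had a site of 441 bp in this window, and 30.6% of its body was covered. The curated RefSeq transcript of Chrm4 starts 5060 bp from that point, and the window there held a site of 2.93 kb and was covered to 97.6%.

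The 4 histamine receptor genes all had a site in the window. Hrh3, for the autoreceptor of histamine neurons, was covered completely by a site of 12929 bp at chr2:180093248-180106176. Hrh1, known from allergic responses, had a site of 7143 bp at chr6:114394512-114401654 and 27 sites over its region, and 34.1% of the windows around its 5 starts was covered. Hrh2, for the Gs-coupled receptor that drives gastric acid secretion, had a site of 4846 bp and 44.1% of its body covered. Hrh4, known from leukocytes, had the narrowest site of the family, 387 bp at chr18:13006304-13006690, and the lowest covered share of the body, 10.4%.

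Among the 5 somatostatin receptor genes, all Gi-coupled and known for holding back hormone release, 4 had a site of at least 2 kb. Sstr5 lay inside the second widest site of all the receptors, 27913 bp at chr17:25476279-25504191. Sstr1 was likewise covered from end to end, though its site of 4540 bp at chr12:58210322-58214861 reached little beyond the gene. Sstr3 had a site of 4622 bp over its start and 54.5% of its body covered. Sstr2, the main target of octreotide, lies inside Slc39a11, a zinc transporter gene, and had a site of 3176 bp and 40.6% of its body covered. Sstr4 (chr2:148395344-148396767) was the exception, with no site in window or body and the one nearest to its 5′ end, of 200 bp, 12006 bp away.

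**Figure D2:**
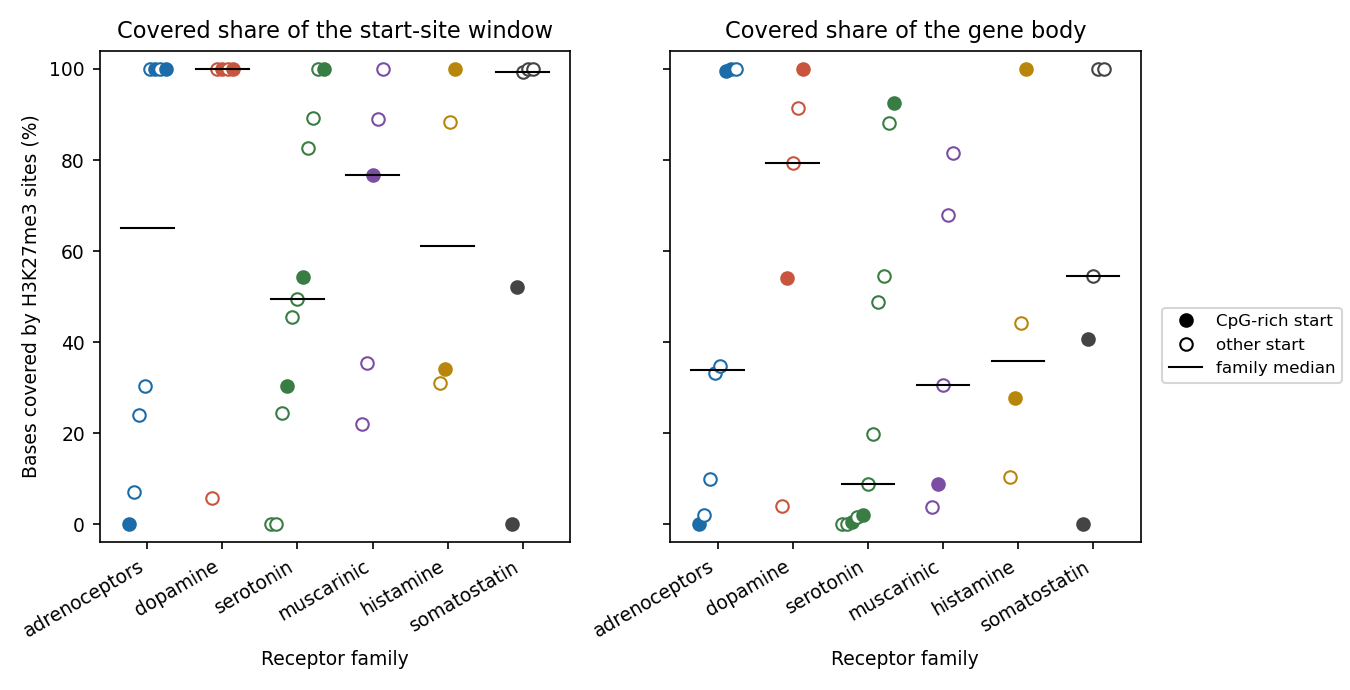
Share of bases covered by H3K27me3 sites in the start-site window (left) and in the gene body (right), in percent, for each of the 38 genes by receptor family. Filled points are genes with a CpG-rich start, open points the others, and the horizontal line is the family median. Family medians of the window run from 49.5% (serotonin) to 100% (dopamine), and those of the body from 8.9% (serotonin) to 79.4% (dopamine).

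Each family spanned a wide range. The covered share of the window ran from 0 to 100% among adrenoceptor, serotonin and somatostatin receptor genes, from 5.7 to 100% in dopamine, from 22 to 100% in muscarinic and from 31.1 to 100% in histamine receptor genes. Its family medians were 100% for dopamine, 99.4% for somatostatin, 76.7% for muscarinic, 65.2% for adrenoceptor, 61.2% for histamine and 49.5% for serotonin receptor genes. With 4 to 11 genes in a family, the ranges of all 6 families overlap. In the body, the medians were 79.4% for dopamine, 54.5% for somatostatin, 35.9% for histamine, 34% for adrenoceptor, 30.6% for muscarinic and 8.9% for serotonin receptor genes.

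By G protein, all 8 genes for Gs-coupled receptors and 20 of 21 for Gi-coupled receptors had a site in the window. So had 6 of 9 for Gq-coupled receptors, beside 31.5% of all protein-coding genes. The Gq-coupled genes without one were Adra1d, Htr2a and Htr2b. A site of at least 2 kb was listed for 6 of the Gs, 14 of the Gi and 4 of the Gq group, beside 16.1% of all protein-coding genes. The Wilson interval of the share with a site was 35.4 to 87.9% for the Gq group and 77.3 to 99.2% for the Gi group, so that the intervals overlap.

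Receptor genes with and without a site were found in both classes of promoter CpG content. A start was called CpG-rich where the 500 bp on either side of the 5′ end had at least 50% GC and at least 0.6 of the CpG number expected from their C and G content. The latter value is called the CpG ratio below. This applied to 13 receptor genes (34.2%), against 44.4% of all protein-coding genes. Of these 13, 11 had a site in the window (84.6%, against 25.5% of all genes with a CpG-rich start) and 9 had one of at least 2 kb (69.2%, against 14.3%). Of the other 25, 23 had a site (92%, against 36.3%) and 15 had one of at least 2 kb (60%, against 17.5%).

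The coverage of windows and bodies was as follows in both classes. At least 50% of the window was covered in 9 of 13 genes with a CpG-rich start (all such genes, 10.6%) and in 13 of the other 25 (15.8%). At least 50% of the body was covered in 6 of 13 (6.45%) and 10 of 25 (11.7%), and all of it in 3 of 13 (1.85%) and 3 of 25 (2.46%). No site in window or body was listed for 2 of 13 (54.6%) and 2 of 25 (49.9%).

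Among wide sites, those of at least 5 kb were found at 6 of 13 genes with a CpG-rich start (all such genes, 8.62%) and at 5 of the other 25 (8.75%). A site of at least 10 kb was listed for 5 of 13 genes with a CpG-rich start (Adra2b, Adrb1, Drd5, Htr6, Hrh3), against 4.33% of all such genes, and for 2 of the other 25 (Adra2c, Sstr5), against 3.41%. The intervals of these shares, 17.7 to 64.5% and 2.22 to 25%, overlap. The contrast also depends on whether neighbouring sites are joined. Once sites closer than 5 kb were joined, Hrh1 and Sstr2 of the CpG-rich class passed 10 kb too. In the other class, Adra1a, Drd1, Htr1a, Htr5a, Htr5b, Chrm1, Chrm2, Hrh2 and Sstr3 did so as well. The shares of all genes at 10 kb were not computed with joined sites. The genes without a site were likewise split, with Adra1d and Sstr4 in the CpG-rich class, both at a ratio of 0.816, and Htr2a (0.405) and Htr2b (0.179) in the other. The highest ratio of all, 0.925, was that of Htr7, whose site measured 658 bp. Across the 38 genes, Spearman's rho between this ratio and the covered share of the window was 0.21, and that between GC content and the same share 0.38. Genes are not independent replicates, and both values are descriptions.

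**Figure D3:**
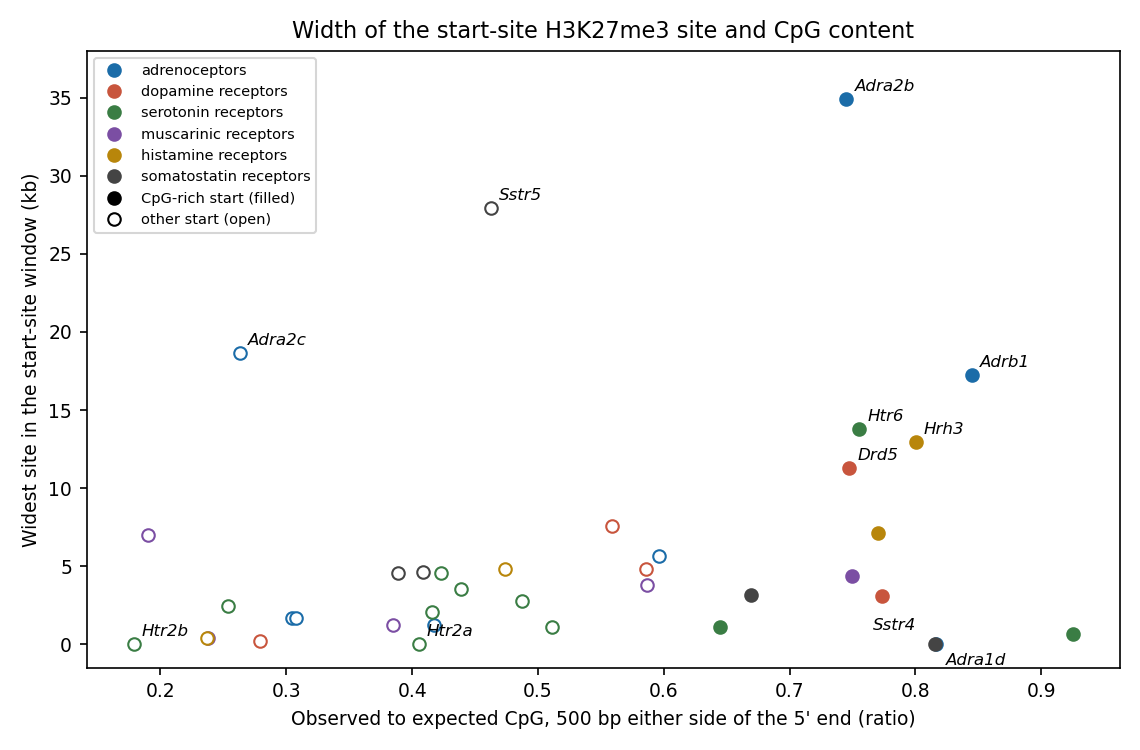
Width of the widest H3K27me3 site in the start-site window (kb) against the CpG ratio (observed over expected) within 500 bp of the 5′ end, 1 point per gene, coloured by family and filled where the start is CpG-rich. Sites over 10 kb occur at ratios from 0.263 (Adra2c) to 0.845 (Adrb1), and Adra1d and Sstr4 lie at 0 kb at a ratio of 0.816.

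By distance, sites were densest just inside the gene. At 0.5 kb downstream of the 5′ end, 11 of 13 receptor genes with a CpG-rich start and 17 of the other 25 were in a site, against 15.0% and 19% of all genes of the same class. At 5 kb upstream the counts were 5 of 13 and 7 of 25, beside 14.0% and 11.8% of all genes. At 10 kb downstream they were 4 of 13 and 6 of 25, beside 7.14% and 11.2% of all genes.

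**Figure D4:**
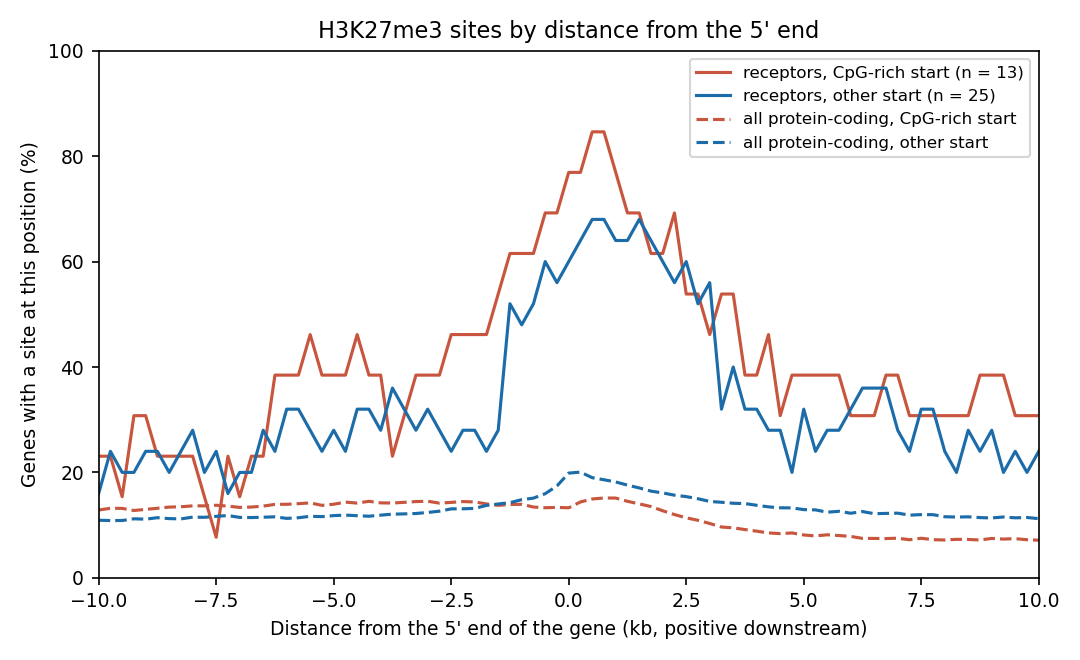
Share of genes (%) with an H3K27me3 site at each position from 10 kb upstream to 10 kb downstream of the 5′ end, in steps of 250 bp, for receptor genes (solid lines) and all protein-coding genes (dashed lines) with a CpG-rich (red) or other start (blue). The receptor lines peak at 84.6% (CpG-rich) and 68% (other) close to 0.5 kb downstream.

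The 5′ end itself lay inside a site in 25 receptor genes, against 16.9% of all protein-coding genes. Many of these receptors are coded by 1 exon, which need not lie at the start, so coding sequence and 5′ end were compared. At least 50% of the coding sequence was covered in 24 receptor genes, against 14.5% of all genes, and all of it in 14, against 5.25%.

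Both the 5′ end and at least 50% of the coding sequence were covered in 17 genes. These were Adra1a, Adra2b, Adra2c, Adrb1, Drd1, Drd2, Drd4, Drd5, Htr1a, Htr4, Htr5a, Htr6, Chrm1, Chrm3, Hrh3, Sstr1 and Sstr5. In 8 genes only the 5′ end was covered (Drd3, Htr1d, Htr1f, Chrm2, Hrh1, Hrh2, Sstr2, Sstr3), with Hrh2 close to the limit at 48.3% of its coding sequence. In 7 genes only the coding sequence passed that limit (Adra1b, Adra2a, Adrb3, Htr1b, Htr5b, Htr7, Chrm5). The remaining 6, Adra1d, Htr2a, Htr2b, Chrm4, Hrh4 and Sstr4, had neither.

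Coding sequence far from the 5′ end was covered in some genes and not in others. In Chrm3 the coding exon, 482 kb from the 5′ end, was covered completely, and in Drd2 the coding sequence, 55 kb from it, was also covered completely. In Htr1f, with 179 kb to the coding sequence, and in Htr1d, with 18.9 kb, none of it was covered, and in Chrm2, with 135 kb, 29.8% was. Over all 38 genes together, 51.8% of exon bases and 12.5% of intron bases lay in sites.

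Gene length went with the covered share of the body. The 16 genes covered to at least 50% had a median length of 4.77 kb and the others one of 34.4 kb (Spearman's rho between length and covered share -0.58, n = 38, a description). Genes with 1 coding exon, 21 in number, had a median covered share of 54.5%, and the 17 with more had one of 10.4%. The former were also shorter, with a median length of 5.54 kb against 24.8 kb, so exon number and length cannot be told apart here. Neither contrast was computed over all protein-coding genes.

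Each gene was also set beside its own flanks of 100 kb on either side. The window was covered to a larger share than the flanks in 33 genes and to a smaller share in 4, and in Htr2a both were uncovered. Of all protein-coding genes, 25.6% had a window covered more than the flanks, and of the 6912 with any base of the window in a site, 81.2% did. The body was covered more than the flanks in 29 receptor genes and less in 8, against 27.1% of all genes and 57.9% of the 10244 with any covered base in the body. The median share of the flanks was 7.31%, ranging from 0 to 86.4%, beside 5.34% over all protein-coding genes and 5.93% of the genome.

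At one extreme, Sstr1 was covered completely in flanks of 0.433%, and Chrm5 to 81.6% in flanks of 0.723%. Htr6 (92.5%) and Htr1a (88%) had flanks of 3.58% and 8.09%. In 6 genes the flanks were covered to more than 40%, namely Adra2c (86.4%), Sstr5 (56.2%), Adra2b (50.3%), Drd5 (45.9%), Hrh1 (43.5%) and Adrb1 (42.5%). Of these, 5 had a site of at least 10 kb. Hrh1, with 27.6% of its body covered, was the only one of the 6 less covered than its surroundings. Across the 38 genes, Spearman's rho between the flank share and the width of the widest site was 0.71; a wide site can itself extend into the flank, so the measures are not separate.

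**Figure D5:**
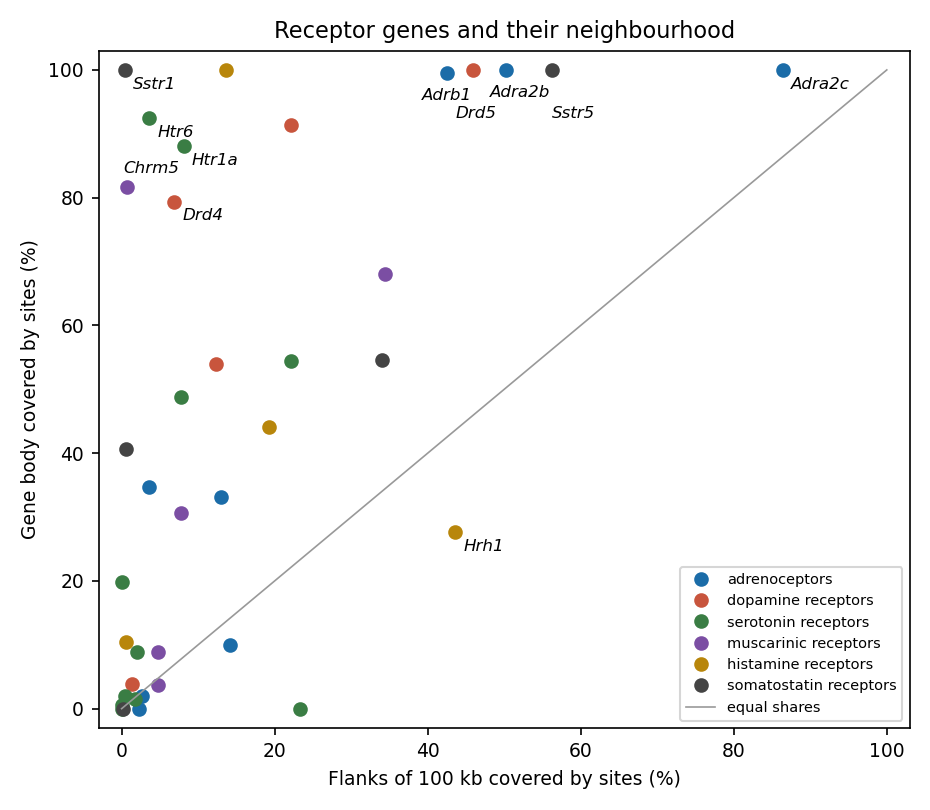
Share of the gene body covered by H3K27me3 sites (%) against the share of the flanks of 100 kb on either side (%), 1 point per gene, coloured by family, with a line of equal shares. Of the 38 genes 29 lie above the line. Sstr1 (100% in flanks of 0.433%) and Adra2c (100% in flanks of 86.4%) mark the range, and Hrh1 lies below the line.

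When sites closer than 5 kb were joined, 6 receptor genes fell into domains of more than 50 kb. The share of all protein-coding genes in such domains was not computed, so it is not known whether this count is unusual. Joining also widened the sites of other genes. The share of all protein-coding genes with a site of at least 2 kb in the window rose from 16.1 to 25.5%. Adra2c belonged to a domain of 430 kb, which also held the 5′ ends of Cpz and of the homeobox gene Hmx1. The Hrh1 domain measured 198 kb. The Drd5 domain measured 127 kb and held Otop1, the Sstr5 domain 110 kb with Cacna1h and Tekt4, the Adra2b domain 97 kb with Astl, Dusp2 and Gpat2, and the Sstr3 domain 55.2 kb with Rac2. In contrast, Sstr1 (4.54 kb), Htr1f (1.12 kb) and Htr1b (1.1 kb) kept the width of their own site. In the list as deposited, no site over a receptor window held the 5′ end of another protein-coding gene.

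In all, 283 sites overlapped a receptor gene or its windows, with a median width of 481 bp against 455 bp in the whole list. Sites of at least 10 kb made up 2.47% of the 283 and 0.944% of the list, and those of at least 1 kb 27.2% and 23.3%. In 28 genes with bases both inside and outside sites, the CpG ratio was higher inside in 23 and the GC content in 25. The median ratio was 0.347 inside and 0.189 outside, and the median GC content was 51.1% and 43.6%. Over all sites of the list, the ratio was 0.233 and the GC content 48.6%, which is not a comparison with bases outside sites. The comparison of inside with outside was not made over all protein-coding genes. The counts of 23 and 25 can therefore not be read as particular to receptor genes.

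Genes that make, move or break down the same transmitters were counted in the same way, from lists of their own. Of 10 genes for ligands or their synthesis, 9 had a site in the start-site window and 6 had one of at least 2 kb. These were Chat (17.1 kb), for acetylcholine synthesis, Tph1 (8.46 kb), for serotonin synthesis, Th (7.01 kb), for the entry step of catecholamine synthesis, Sst (5.69 kb), for somatostatin itself, Pnmt (3.83 kb) and Hdc (2.19 kb). Cort, for the related peptide cortistatin, had none.

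All 7 transporter genes had a site, and 6 had one of at least 2 kb. Slc18a3, for the vesicular acetylcholine transporter, a gene that lies within Chat, had the same 17.1 kb site at its start. The others were Slc6a2 (9.48 kb), Slc6a4 (6.59 kb), Slc6a3 (4.43 kb), Slc18a2 (3.80 kb) and Slc18a1 (2.64 kb), for the uptake of monoamines into neurons and vesicles. Of 6 genes for breakdown, 2 had a site, and Ache, for acetylcholinesterase, had one of 5.72 kb. Of 18 genes for ion channels gated by acetylcholine or serotonin, 14 had a site and 11 had one of at least 2 kb, with Chrna4 (25.5 kb), Chrng (12.4 kb), Chrnb2 (12.2 kb) and Htr3a (6.05 kb) the widest. The counts in these lists lie beside the 31.5% and 16.1% of all protein-coding genes given above.

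The start sites were also taken from curated RefSeq transcripts. By these, 32 receptor genes had a site in the window (27.3% of all genes with such a transcript) and 25 had one of at least 2 kb (14.9%). Drd3, whose RefSeq start lies 8195 bp from the 5′ end used above, and Htr1b had no site under these starts, and Chrm4 passed 2 kb. No receptor gene overlapped a stretch of at least 1 kb that an alternative patch sequence of the assembly repeats. Other repeats were not examined.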

How the data were processed

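Reads of the H3K27me3 ChIP-seq libraries had been trimmed with Trim Galore, aligned with BWA to mm10 (GRCm38.p6), filtered with samtools and merged over replicates with Picard by the authors. Libraries were brought to the lowest coverage of the experiment, broad peaks were called with MACS (MACS2 in the submitters' processing notes) and sites of all samples were brought together. Program versions, thresholds and the combining rule are not given in the sources used here. The deposited list holds positions only, with no score, count or call per library. Deposited starts were taken as 0-based and ends as exclusive, and positions are printed 1-based. No test between groups was possible, and the reads per library left after filtering are not given in the sources used here.

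Start sites, bodies, exons and coding sequences came from GENCODE M21 (GRCm38.p6), and 153878 sites on assembled chromosomes were used. Sites of at least 2 kb were called wide. Intervals are 95% Wilson intervals for shares of genes and order-statistic intervals for medians. Python 3.11.15, numpy 2.4.6, SciPy 1.17.1, matplotlib 3.10.9 and minimap2 2.31 (patch sequences against chromosomes) were used. The overlap functions were checked on simulated data. The genes and lists were chosen with earlier results of these data known. All 38 genes were named, with full values for the 10 widest start-site sites, the genes without a site and the highest and lowest body share of each family. Genes of the other lists were named where a site of at least 2 kb lay at the start, for the channels the 4 widest, and genes sharing a joined domain were added after their values were seen. Upstream sequences were shown where no annotated exon overlapped. A further sequence and a neighbouring gene are not reported here. Alternatives were joined sites, width minima, other windows, transcripts and CpG limits. RefSeq starts, and further settings for flanks and exons, were chosen after seeing the data.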

Additional observations from a re-analysis of the deposited data

How the results depend on the processing

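Sites closer than 1 kb or 5 kb were joined, only sites of at least 500 bp or 1 kb were kept, windows of 500 bp and 2.5 kb, the 5′ end alone, protein-coding transcripts, RefSeq starts and other CpG limits were used. Over these settings, 30 to 34 receptor genes had a site in the start-site window, beside 20.1 to 39.8% of all protein-coding genes, and 24 to 27 had one of at least 2 kb, beside 14.3 to 25.5%. The lowest shares of all genes came with only sites of at least 1 kb and with the 5′ end alone, the highest with windows of 2.5 kb and with sites closer than 5 kb joined, in this order. With sites closer than 5 kb joined, the median covered share of the body rose to 69.6%, the median widest site to 8151 bp and the covered share of intron bases to 24.3%, as gaps between sites were filled. With only sites of at least 1 kb, 8.32% of intron bases were covered, as narrow sites were left out. In all, 12 results over receptor genes were recomputed in this way, and their other values moved by less than 1.5 times. Counts of sites of at least 5 or 10 kb and counts by body share were not among them. Neither were values by family, G protein or coding pattern. More genes passed 10 kb once sites closer than 5 kb were joined, as named above for both classes of start. No paired analysis was possible because sites are listed once over all libraries, which also leaves no replicate to omit. A weak or narrow enrichment may be missing from a combined list whose threshold and depth are unknown.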
